A study of Homo sapiens with 4 samples.

Results

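Within the CD133-low cells of the PC14 line, the cells sorted for low E-cadherin differed from those sorted for high E-cadherin by at least 2-fold in 775 genes, and most of these genes did not reach 2-fold in CD133-high cells, bounds included. PC14 is a human line of non-small-cell lung cancer. The comparison rests on 2 of the 4 arrays of the series: E-cadherin-low CD133-low cells (PC14 E-CD133-) over E-cadherin-high CD133-low cells (PC14 E+CD133-), 1 array each. The other pair, E-cadherin-low CD133-high cells (PC14 E-CD133+) over E-cadherin-high CD133-high cells (PC14 E+CD133+), shares no array with it and is used here to ask which differences recur. All 4 groups carried the same lentiviral reporter of CD133 (green fluorescent protein under that gene's P1 promoter), and "CD133-low" means low reporter signal within cells already sorted by fluorescence for E-cadherin. No group had a further treatment or genetic change in the labels. Whether the 4 RNAs came from separate cultures is not given in the sources used here. With 1 array a group there is no replicate check and no test, and every difference below is a difference between these libraries.

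Epithelial cells are held together by adherens junctions, in which E-cadherin binds between neighbouring cells, by desmosomes, which anchor keratin filaments, and by tight junctions, which seal the cell layer. In the epithelial to mesenchymal transition these junction genes are repressed by transcription factors such as ZEB1 and SNAI1, which bind short E-box sequences in promoters, and the intermediate filament vimentin appears beside or in place of keratins. ZEB1 and the microRNAs of the miR-200 family are known to repress each other.

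CDH1, the gene for E-cadherin, read 3546 on the E-cadherin-high and 528 on the E-cadherin-low array of the CD133-low pair, and 5548 and 347 in the CD133-high pair, so both pairs followed the label. PROM1, the gene for CD133, lay below the floor on all 4 arrays. It read 29.7 and 4.79 in the CD133-low pair and 12.1 and 10.3 in the CD133-high pair. The CD133 label of the reporter sort thus could not be checked by this RNA. The floor is the 50th percentile of an array, signals of 53.7 to 60.3, and 12309 to 12459 of 19775 named genes lay above it. Of 10 epithelial carcinoma markers, 8 were above the floor on the E-cadherin-high and 9 on the E-cadherin-low array of the CD133-low pair. Their summed signal, which includes the sorted marker CDH1, was 32754 and 15868. KRT19 lay below the floor on both arrays. Of 10 fibroblast markers 6 and 5 were above the floor, with sums of 25024 and 18142 that came mainly from COL3A1 (22769 and 15938), while PDGFRA and PDGFRB lay below it. Of 12 leukocyte markers 5 were above the floor on either array, with sums of 892 and 1029 and with PTPRC at 346 and 505, and CD14, LYZ and NKG7 lay below the floor. Of 9 endothelial markers 2 were above it (sums of 421 and 346), with VWF and CDH5 below it, and of 9 neuroendocrine markers 3 and 5, with sums of 30306 and 27893 that came mainly from UCHL1. The part of these other marker genes in the results was not tested. The ratio of 3′ over 5′ signal was 1.57 and 1.53 for actin and 0.898 and 0.963 for GAPDH on the 2 arrays, and the 5′ probe set of 18S ribosomal RNA read 14297 on the E-cadherin-high and 7226 on the E-cadherin-low array. The middle probe set of that RNA read 6985 and 3013 and the 3′ one 7240 and 5902. The actin ratio of the CD133-high pair was 1.59 and 1.78, the GAPDH ratio 0.960 and 1.02, and the 5′ probe set of 18S 13204 and 8619. The part of these RNA values in the results was not tested. In RNA from many cells, fewer cells of a kind and less RNA per cell cannot be told apart.

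Among CD133-low cells, 371 genes had a signal at least 2-fold higher in E-cadherin-low than in E-cadherin-high cells, 2.82% of the 13159 genes above the floor on at least 1 array of the pair. Another 404 genes (3.07%) were at least 2-fold lower. The ratio of 85 of the higher and 104 of the lower genes is a bound, because 1 of the arrays lay at the floor. Large differences were few: 37 higher and 33 lower genes reached 4-fold, and 10 and 7 reached 8-fold. The median log2 ratio of all measured genes was -0.03, with the middle 50% of genes between -0.29 and 0.26, and 53.1% of genes lay below 0. In the CD133-high pair, 536 of 13228 genes (4.05%) were higher and 356 (2.69%) lower by the same rule. A plot of the ratio against signal shows the widest spread among dim genes.

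**Figure D1:**
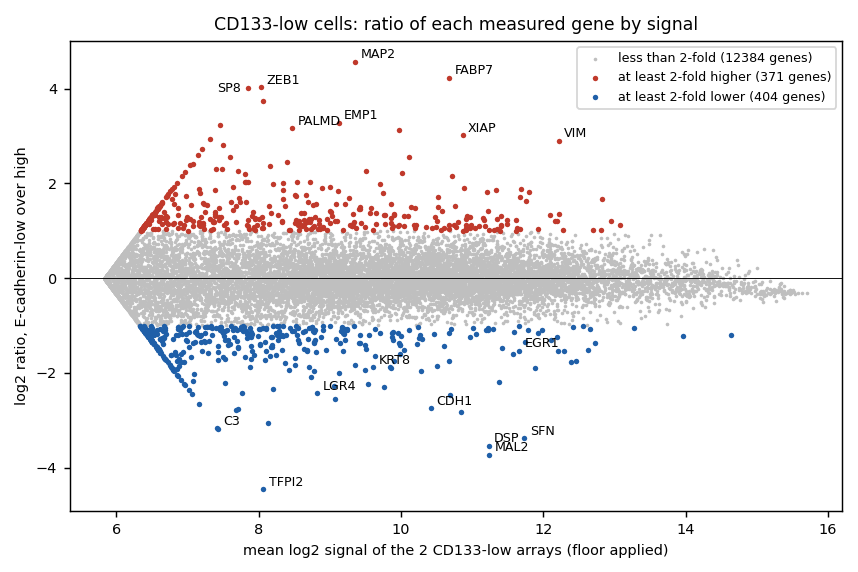
Each point is 1 of the 13159 genes measured in the CD133-low pair, with the mean log2 signal of its 2 arrays on the x axis and the log2 ratio of E-cadherin-low over E-cadherin-high cells on the y axis. The 371 genes at least 2-fold higher are red, the 404 at least 2-fold lower blue, and the slanted edges on the left hold genes with 1 array at the floor, whose ratio is a bound. MAP2, FABP7 and ZEB1 lie at the top and TFPI2, MAL2, DSP and SFN at the bottom.

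Genes of epithelial adhesion were lower in the E-cadherin-low cells. Of 35 measured members of this list 14 were at least 2-fold lower, 0 were higher and 21 were neither, against 3.07% lower among all measured genes. The median log2 ratio was -0.63, with 27 genes below 0, beside -0.03 over all genes. Without probe sets marked as shared 8 members were lower, and the median was -0.32 as the mean over probe sets. In the CD133-high pair the median was -0.24, 9 members were lower and 1 was higher, and 7 of the 14 were lower in both pairs. DSP, the desmosomal plaque protein desmoplakin, read 8212 on the E-cadherin-high and 705 on the E-cadherin-low array, 11.6-fold lower. DSG2, a desmosomal cadherin, read 4872 and 690, and its other probe set had a log2 ratio of -2.20. MUC1, an apical mucin, read 1168 and 241, and MAL2, a protein of apical membrane traffic, 8772 and 664. These members were low on both E-cadherin-low arrays of the series, with log2 ratios of -1.39 to -5.26 in the CD133-high pair.

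Other members, named after their values were seen, were lower by 2-fold in the CD133-low pair and by less in the CD133-high pair. JUP, the plakoglobin shared by desmosomes and adherens junctions, had -1.74 and -0.75, TJP3, a tight junction scaffold, -1.57 and -0.21, and PPL, the cornified envelope protein periplakin, -1.21 and -0.15. EPCAM, an epithelial adhesion molecule, read 10717 and 3760 in the CD133-low pair (-1.51) and 12326 and 6554 in the CD133-high pair (-0.91). Not all junction genes were lower: TJP1, named after its values were seen, had log2 ratios of 0.35 and 0.23, and CXADR -0.24 and 0.05.

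The keratins of simple epithelia differed among themselves. KRT8 read 1493 on the E-cadherin-high and 406 on the E-cadherin-low array, a log2 ratio of -1.88, and 1334 and 1081 in the CD133-high pair (-0.30). Of the 4 arrays, the E-cadherin-low CD133-low array alone was low. KRT8 rests on a probe set marked as shared, with no other one above the floor. KRT7 read 154 and 64.3 in the CD133-low pair and 64.3 and 116 in the CD133-high pair, with log2 ratios of -1.26 and 0.85. Both values of 64.3 lay near the floor, and 0.85 does not reach 2-fold. KRT18, the partner of KRT8 and named after its values were seen, differed less, with 15306 and 10434 (-0.55). In the list of 13 measured keratins and other intermediate filaments, 2 were lower and 2 were higher, VIM and SYNM, with a median of -0.54. Among all measured genes 3.07% were lower and 2.82% higher.

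Of 10 measured regulators of epithelial identity 3 were at least 2-fold lower, 0 were higher and 7 were neither, against 3.07% lower among all measured genes, and the median log2 ratio was -0.65. ELF3, an ETS factor of epithelia, read 506.5 on the E-cadherin-high and 94.3 on the E-cadherin-low array (-2.43), and its 2 other probe sets gave -1.98 and -1.61. It lay below the floor on both CD133-high arrays, at 50.6 and 59.4. KLF4, a zinc finger factor of differentiating epithelia, read 885 and 392.3, and in the CD133-high pair 528 and 727. HNF4G, a nuclear receptor, read 145 and 21.1, at least 2.54-fold lower, and 111 and 21.1 in the CD133-high pair (-0.88, a bound). The grainyhead factors GRHL1 and GRHL2, named after their values were seen, had log2 ratios of 0.04 and 0.16.

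The promoters of the genes that were lower in both pairs held an E-box more often than those of measured genes overall. The motif searched was CAGGTG or its reverse complement CACCTG, in the 300 bases from 250 before to 50 after each gene's start in the RefSeq promoter table (GRCh38.p14). CDH1 and MAL2 are among the genes with no entry. Of all 27305 promoters 20.6% held the motif, and of the 10631 measured genes with a promoter 18.3%. Of the 61 genes lower in both pairs with a promoter, 28 (45.9%) held it and 11 (18.0%) held 2 or more, against 2.56% of measured genes. Of all 303 lower genes with a promoter 82 (27.1%) held it. Of the 218 lower genes that did not reach 2-fold in the CD133-high pair, bounds included, 22.02% held it and 6.88% held 2 or more. Among higher genes the share was 14.8% of 61 in both pairs and 16.8% of the 208 that did not reach 2-fold in the CD133-high pair. Of 19 measured epithelial adhesion genes with a promoter, whatever their ratio, 9 (47.4%) held the motif. JUP and TJP3 hold 0, and the promoter of ZEB1 holds 1. The median GC content was 65.7% in the 61 lower promoters and 65% in those of measured genes. A match describes the letters in this window and does not show binding.

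The 11 genes with 2 or more motifs, listed after their values were seen, were DSP, DSG2, MUC1, MYO5B, SH3YL1, CRIP2, AGR3, C1orf210, BSPRY, DUSP8 and MAP7. The 250 bases before the start are given for 5 of the 28 genes, chosen after their values were seen because they are junction or apical genes or host a microRNA known to act against ZEB1. The coding strand is printed 5′ to 3′ with each motif in capitals. DSP lies at chr6:7541421-7541670 on the plus strand, DSG2 at chr18:31497927-31498176 (plus), MUC1 at chr1:155192916-155193165 (minus), MYO5B at chr18:50195148-50195397 (minus) and MIR200CHG at chr12:6962995-6963244 (plus), all in GRCh38.p14.
DSP: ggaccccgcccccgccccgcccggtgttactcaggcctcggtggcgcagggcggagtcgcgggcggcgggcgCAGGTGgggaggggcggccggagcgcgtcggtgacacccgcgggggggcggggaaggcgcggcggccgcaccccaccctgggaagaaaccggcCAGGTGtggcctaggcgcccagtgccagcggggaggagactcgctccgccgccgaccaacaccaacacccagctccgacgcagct
DSG2: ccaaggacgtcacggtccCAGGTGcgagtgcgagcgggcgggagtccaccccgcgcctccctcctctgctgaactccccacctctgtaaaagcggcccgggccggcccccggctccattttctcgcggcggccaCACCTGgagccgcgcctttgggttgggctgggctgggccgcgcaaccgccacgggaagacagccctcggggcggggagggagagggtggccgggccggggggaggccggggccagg
MUC1: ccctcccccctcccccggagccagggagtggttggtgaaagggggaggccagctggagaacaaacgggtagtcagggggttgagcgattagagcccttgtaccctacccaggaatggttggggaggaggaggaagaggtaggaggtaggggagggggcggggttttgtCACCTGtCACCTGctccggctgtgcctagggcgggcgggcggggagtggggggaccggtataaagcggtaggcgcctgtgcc
MYO5B: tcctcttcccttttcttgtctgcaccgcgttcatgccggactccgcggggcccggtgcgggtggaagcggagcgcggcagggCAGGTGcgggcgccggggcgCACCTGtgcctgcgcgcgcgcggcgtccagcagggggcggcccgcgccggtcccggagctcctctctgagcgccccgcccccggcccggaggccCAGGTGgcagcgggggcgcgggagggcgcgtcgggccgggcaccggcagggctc
MIR200CHG: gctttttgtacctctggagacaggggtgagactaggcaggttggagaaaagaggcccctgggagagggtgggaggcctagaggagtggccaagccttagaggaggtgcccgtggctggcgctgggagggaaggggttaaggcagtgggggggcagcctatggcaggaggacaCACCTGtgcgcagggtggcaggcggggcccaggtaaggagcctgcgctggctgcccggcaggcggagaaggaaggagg
The motifs of DSP start 178 and 85 bases before the gene's start, those of DSG2 232 and 116 and those of MUC1 82 and 75. In MUC1 the motif occurs as CACCTG in both places with 1 base between. MYO5B, a myosin motor of apical recycling endosomes, holds 3 motifs, at 168, 148 and 54 bases, and read 764 on the E-cadherin-high and 260 on the E-cadherin-low array, and 921 and 265 in the CD133-high pair. MIR200CHG, the host transcript of a miR-200 family member, holds 1 motif at 78 bases. It read 121 and 54.8 in the CD133-low pair, at least 2.12-fold lower, and 212 and 84.1 in the CD133-high pair (-1.34).

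**Figure D2:**
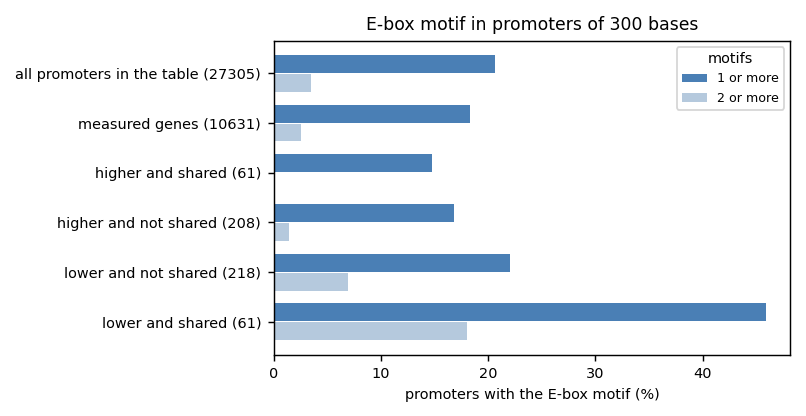
Bars give the percentage of promoters of 300 bases that hold the motif CAGGTG or CACCTG at least once (dark) or 2 or more times (light), with the number of promoters in each set in brackets. The genes lower in both pairs stand at 45.9% and 18.0%, and every other set shown lies between 14.8% and 22.02% for 1 or more motifs.

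ZEB1 read 64.8 on the E-cadherin-high and 1056 on the E-cadherin-low array of CD133-low cells, and 168 and 1301 in the CD133-high pair. Both E-cadherin-low arrays were thus above both E-cadherin-high arrays, with log2 ratios of 4.03 and 2.95. Its 3 other probe sets gave 0.03 to 1.34 in the CD133-low pair. Of 10 measured transition factors 3 were higher, 2 lower and 5 neither, against 2.82% higher and 3.07% lower among all measured genes. RUNX2, a factor of osteoblasts, read 12.1 and 348, at least 6.06-fold higher, and 234 and 354 in the CD133-high pair. Its 2 other probe sets gave log2 ratios of -0.09 and 0.90 in the CD133-low pair. TBXT, the mesoderm factor brachyury, read 46.8 and 144, at least 2.51-fold higher. SNAI1, the repressor Snail (named after its values were seen), went the other way, from 119 to 55.2, at least 2.08-fold lower. TCF3, a helix-loop-helix factor, read 7316 and 1961, but 5 of its 13 other probe sets lay below 0, and its log2 ratio was 0.11 without probe sets marked as shared.

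Of 32 measured mesenchymal genes 3 were at least 2-fold higher, 1 was lower and 28 were neither, against 2.82% higher and 3.07% lower among all measured genes. Their median log2 ratio was -0.04 in the CD133-low pair (0.13 as the mean over probe sets) and 0.34 in the CD133-high pair. VIM, vimentin, read 1740 on the E-cadherin-high and 12938 on the E-cadherin-low array of CD133-low cells, 7.43-fold higher, against 12448 and 20200 in the CD133-high pair. The E-cadherin-high CD133-low array alone was low in VIM, and the other 3 lay within 12448 to 20200. AXL, a receptor kinase, read 54.0 and 151 (at least 2.64-fold higher), below both values of the CD133-high pair, 271 and 1518. CAV1, the main protein of caveolae, read 5681 and 1248, and 5641 and 2771 in the CD133-high pair, lower in both. Of 40 measured extracellular matrix genes 4 were higher, POSTN, COL11A1, COL12A1 and FBN2 (2.82% of all genes), and 1 was lower, with a median of -0.10 (0.05 without probe sets marked as shared). The other probe set of COL12A1 gave a log2 ratio of 0.10 beside 1.73. In the CD133-high pair 13 of 45 measured matrix genes were higher, against 4.05% of all genes, and 0 lower. SPP1, COL4A1, COL4A2 and MFAP5, named after their values were seen, were among those, with log2 ratios of 5.45, 1.94, 2.57 and 3.13 there. In the CD133-low pair these were 0.05, -0.43, -0.26 and -0.27. The other probe sets of COL4A1 and COL4A2 gave -1.26 and -0.64 in the CD133-low pair.

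The genes with the largest ratios included several that lay near or below the floor on both CD133-high arrays. FABP7, the brain-type fatty acid binding protein, read 377 on the E-cadherin-high and 7086 on the E-cadherin-low array of CD133-low cells, a log2 ratio of 4.23, and 37.5 and 28.9, below the floor, in the CD133-high pair. Its other probe set gave 3.97. SP8, a zinc finger factor of limb and brain development, read 18.2 and 922, at least 16.1-fold higher. On the CD133-high arrays it lay below the floor, at 15.02 and 49.8. MAGEC2 and MAGEC1, cancer and testis antigens encoded on the X chromosome, read 50.9 and 539, and 31.8 and 254, at least 9.39-fold and 4.43-fold higher. In the CD133-high pair MAGEC2 lay below the floor on both arrays and MAGEC1 at 36.2 and 65.3. DPPA2, a gene of early embryo and germ cells, read 42.0 and 302, and 22.6 and 71.5 in the CD133-high pair. ZC3H12C read 126 and 649, against 33.98 and 44.2. In these genes the E-cadherin-low CD133-low array was the highest of the 4. In all, 24 higher and 15 lower genes lay at the floor on both CD133-high arrays.

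PALMD, the cytoskeletal protein palmdelphin, read 119 and 1061 in the CD133-low pair (3.16) and 63.6 and 121 in the CD133-high pair (0.92). Its 2 other probe sets gave 0.17 and 2.11. MAP2, a microtubule protein of neurons, read 135 and 3178, and 119 and 1886 in the CD133-high pair, the largest ratio of any gene above the floor on both CD133-low arrays (4.56). EMP1, a membrane protein of the PMP22 family, read 179 and 1731, and its other probe set gave 3.002 beside 3.27. MAP2 and EMP1 were higher in both pairs, and PALMD by at least 2-fold in the CD133-low pair alone.

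**Figure D3:**
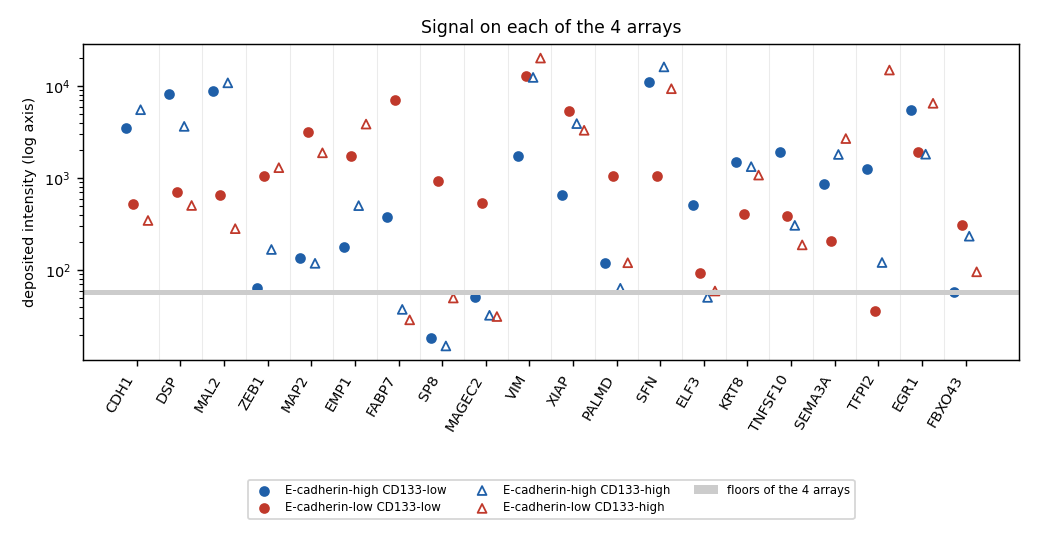
The deposited intensity of 20 genes on each of the 4 arrays, on a log axis, with CD133-low arrays as filled circles, CD133-high arrays as open triangles, E-cadherin-high in blue and E-cadherin-low in red, and the grey band the floors of 53.7 to 60.3. CDH1, DSP and MAL2 are low on both red arrays, FABP7, SP8 and MAGEC2 are above the floor only on CD133-low arrays, and VIM and XIAP are low only on the E-cadherin-high CD133-low array.

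Most differences of the CD133-low pair were not shared by the CD133-high pair. Among all 13228 genes measured there, fewer reached 2-fold: 4.05% higher and 2.69% lower, beside 18.1% and 18.8% shared. Of the 371 higher genes 67 (18.1%) were at least 2-fold higher there too, 0.545% of the 12304 genes measured in both pairs. Another 266 (71.7%, or 2.16% of genes) did not reach 2-fold, 14 (0.114%) were at least 2-fold lower, and 24 lay at the floor. Of the 404 lower genes 76 (18.8%, or 0.618%) were shared, 294 (72.8%, or 2.39%) did not reach it, 19 (0.154%) were opposite and 15 lay at the floor. With 1 CD133-high array at the floor, the ratio there is a bound for 23 of the 266 and 20 of the 294, so that these 43 may differ by more. Read from the other side, the shared genes were 12.5% of the 536 higher and 21.3% of the 356 lower genes of the CD133-high pair. Among genes above the floor on all 4 arrays, 172 of 266 higher genes (1.58% of 10891) and 160 of 285 lower genes (1.47%) were within 1.5-fold in the CD133-high pair. The median ratio there was 0.18 over the 266 and -0.34 over the 285, and 163 and 193 had the same sign as in the CD133-low pair.

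**Figure D4:**
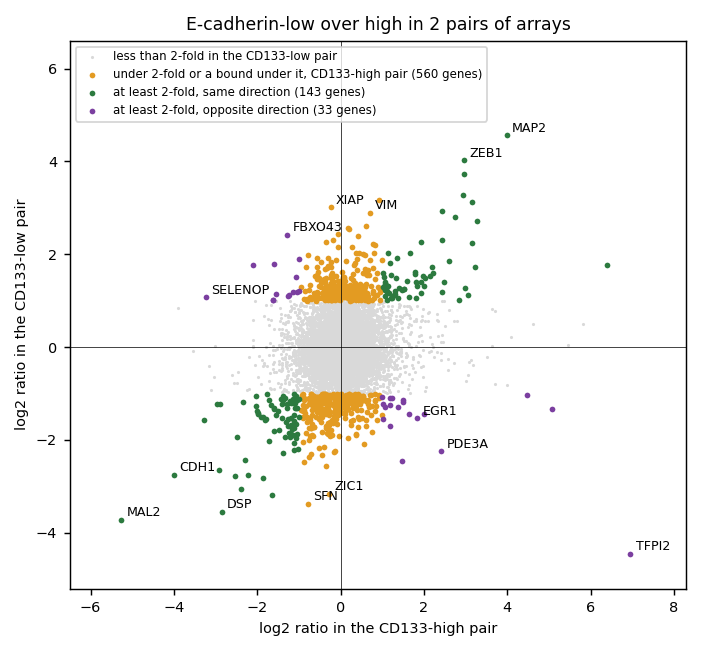
Each point is a gene measured in the CD133-high pair and in the CD133-low pair, with its log2 ratio of E-cadherin-low over E-cadherin-high cells in the CD133-high pair on the x axis and in the CD133-low pair on the y axis. Of the genes at least 2-fold in the CD133-low pair, 560 do not reach 2-fold in the CD133-high pair, bounds included (orange), 143 go the same way there (green) and 33 the opposite way (purple), TFPI2 farthest out.

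For genes not shared, each CD133-low array was set against the mean of the 2 CD133-high arrays. Among the 172 higher genes within 1.5-fold in the CD133-high pair, the E-cadherin-high CD133-low array lay farther from the mean of the CD133-high arrays in 124 and the E-cadherin-low CD133-low array in 48. In 62 genes the E-cadherin-high array alone was 2-fold or more away while the E-cadherin-low array was within 1.5-fold, and in 13 the reverse held. Among the 160 lower genes the order turned: the E-cadherin-low array was farther in 129 and the E-cadherin-high array in 31, with 63 and 11 genes where it alone was apart. These genes were chosen by their ratios, so at least 1 CD133-low array had to lie away from that mean. The CD133-low array with the lower signal was the one farther away in 124 of the 172 and 129 of the 160. The mean lay between the 2 CD133-low arrays in 126 and 75 genes.

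XIAP, an inhibitor of caspases, was the highest-ranked of these genes above the floor on all arrays. It read 656 on the E-cadherin-high and 5307 on the E-cadherin-low array of CD133-low cells, against 3918 and 3316 in the CD133-high pair, so that the E-cadherin-high CD133-low array was low. Its log2 ratios were 3.02 and -0.24, but its 6 other probe sets gave -0.21 to 1.43 in the CD133-low pair. YARS2, the mitochondrial tyrosyl-tRNA synthetase, read 458 and 2682, against 2164 and 2509. CASTOR2, a relative of the arginine sensor of the mTORC1 pathway, read 79.7 and 469, against 396 and 447. ARSB, a lysosomal sulfatase, read 144 and 785, against 471 and 450.1 in the CD133-high pair, while its 2 other probe sets gave 0.10 and 0.28. In TTF2, a transcription termination factor, the other probe set had the opposite sign (-0.59 beside 2.26). RCBTB2, TRUB1, ZNF605, ZXDB, MDM1 and RNFT1 had log2 ratios of 1.89 to 2.31 in the CD133-low pair and of -0.29 to 0.45 in the CD133-high pair. Each of these 6 was lowest on the E-cadherin-high CD133-low array, RCBTB2 for example at 80.4 against 168 to 398 on the others.

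Among the lower genes not shared, SFN, the epithelial adaptor protein stratifin, had the largest ratio. It read 10964 on the E-cadherin-high and 1054 on the E-cadherin-low array of CD133-low cells, 10.4-fold lower, and its 2 other probe sets gave -4.04 and -2.35. In the CD133-high pair it read 16199 and 9382 (-0.79), so that the E-cadherin-low CD133-low array alone was low. TNFSF10, the death ligand TRAIL, read 1913 and 390, and 307 and 188 in the CD133-high pair, with -1.78 and -1.74 in its 2 other probe sets. SEMA3A, a secreted guidance protein, read 875 and 206, against 1811 and 2695. GPD2, a mitochondrial glycerol phosphate dehydrogenase, read 2465 and 632, against 5129 and 5773, and its other probe set gave -2.22. APOBEC3B, a cytidine deaminase, read 1757 and 481, against 6552 and 8525. In SEMA3A, GPD2 and APOBEC3B both CD133-low values lay below both CD133-high values.

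The rest of these genes covered several functions. SEL1L3 had -2.55 and -0.34, CAPN1, a calpain protease, -2.33 and -0.45, and ICA1 -2.23 and -0.12. PRPF40B, MISP and SYTL3 had log2 ratios of -1.86 to -1.78. ZIC1, a zinc finger factor of the developing brain, read 508 and 25.5, at least 8.90-fold lower, and 1088 and 896 in the CD133-high pair. KCNK6, a potassium channel, read 294 and 53.3, and POLD4, a subunit of DNA polymerase delta, 274 and 33.3, at least 5.16-fold and 4.81-fold lower. LGALS1, the secreted lectin galectin-1, read 1764 and 584, far below the 15831 and 18772 of the CD133-high pair. OSBPL10, a lipid transfer protein, had -2.47 and -0.87.

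A set of 33 genes were at least 2-fold in both pairs in opposite directions, and none of these differences between pairs was tested. TFPI2, a secreted inhibitor of serine proteases, had the largest contrast. It read 1251 on the E-cadherin-high and 35.6 on the E-cadherin-low array of CD133-low cells, at least 21.9-fold lower, and 121 and 14974 in the CD133-high pair, a log2 ratio of 6.95. Its other probe set gave -3.15 in the CD133-low pair. PDE3A, a cyclic nucleotide phosphodiesterase, read 270.1 and 50.5, at least 4.73-fold lower, and 243 and 1300.2. EGR1, the immediate early zinc finger factor, read 5504 and 1902, and 1824 and 6515, with -1.35 and -1.24 in its 2 other probe sets. EGR4, of the same family, read 211 and 93.3, and 388 and 1101. Among genes higher in the CD133-low pair, FBXO43, an F-box inhibitor of the anaphase-promoting complex, read 58.6 and 313, and 234 and 96.0. SELENOP, a plasma selenium carrier, read 896 and 1889.7, and 2084 and 222. MAP2K6, a MAP kinase kinase, read 77.6 and 269, and 251.4 and 82.9.

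Of 40 measured immediate early and stress genes 6 were at least 2-fold lower in the E-cadherin-low CD133-low cells, against 3.07% of all measured genes, 0 were higher and 34 were neither, and 32 had ratios below 0. The median log2 ratio was -0.52, and in the CD133-high pair 0.36, with 29 above 0 and 10 of 40 at least 2-fold higher, against 4.05% of all genes. Of the 39 members measured in both pairs, 22 lay below 0 in the first and above 0 in the second, against 25.2% of all genes measured in both. DDIT3, a stress-induced factor, read 1134 on the E-cadherin-high and 497 on the E-cadherin-low array of CD133-low cells, and 402 and 501 in the CD133-high pair. GADD45A, a growth arrest gene, read 1482 and 663, and 1600.3 and 2852. FOS, a subunit of the AP-1 factor, and ATF3, a stress-induced repressor, are named after their values were seen. FOS read 1934 and 1026, and 1037 and 2329, and ATF3 870 and 409.6, and 568 and 1342. In these the order of the E-cadherin-high and E-cadherin-low arrays turned between the pairs.

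Counts of DNA replication and mitosis genes at 2-fold in the CD133-low pair lay near the shares over all measured genes. Of 55 measured members 0 were higher and 1 was lower, E2F1, a bound (140.5 and 49.5), against 2.82% higher and 3.07% lower among all measured genes. Of the 55 ratios 39 lay above 0, with a median of 0.15, and in the CD133-high pair 50 lay below 0, with a median of -0.40. In 36 of 55 the ratio was above 0 in the CD133-low and below 0 in the CD133-high pair, against 22.04% of all genes measured in both. PCNA, the sliding clamp of DNA polymerase, read 6900 and 12749, and 13665 and 6949 in the CD133-high pair. MCM3, of the replicative helicase, read 2004 and 3016, and 2048 and 1088, and CDK1, the mitotic kinase, 7745 and 8576, and 8597 and 4275. These 3 genes are named after their values were seen. RBL1, a retinoblastoma relative in the list of cyclins and inhibitors, read 195 and 564, and 377 and 245. Its 2 other probe sets gave log2 ratios of 0.07 and 1.23 in the CD133-low pair, beside 1.53.

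Most genes of cholesterol and fatty acid synthesis and of antigen presentation by MHC did not reach 2-fold. Of 28 measured synthesis genes 3 were lower, against 3.07% of all measured genes, 0 higher and 25 neither, with 25 below 0 and a median log2 ratio of -0.41, against -0.07 in the CD133-high pair. FDPS, which makes farnesyl diphosphate, read 14157 and 6868, and 18581 and 14087 in the CD133-high pair. ACSS2, an acetyl-CoA synthetase, read 501 and 239.9. Of 23 measured MHC genes 3 were lower (again against 3.07%), 0 higher and 20 neither, with 19 below 0 and a median of -0.32, against -0.04. HLA-DMA, which loads peptide on class II molecules, read 586 and 265, and 882 and 813. HLA-DQB1 read 444 and 189, and 499 and 546, and all 5 of its other probe sets lay below 0, while the other probe set of HLA-DPA1 was at 0.00. HLA genes resemble each other, and their probe sets can share signal.

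**Figure D5:**
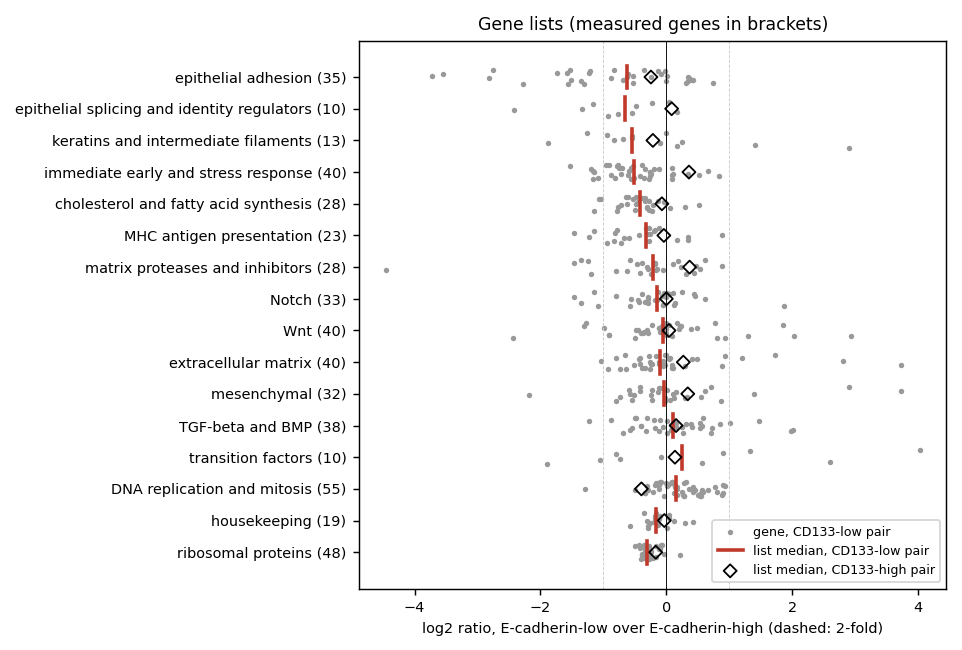
Grey points are the measured genes of 16 lists by their log2 ratio of E-cadherin-low over E-cadherin-high cells in the CD133-low pair. Red bars are list medians in that pair and open diamonds those in the CD133-high pair, with the number of measured genes in brackets. For immediate early genes the medians lie at -0.52 and 0.36 and for DNA replication at 0.15 and -0.40, while mesenchymal genes lie at -0.04 and 0.34.

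Signalling lists had members in both directions, to be read against 2.82% higher and 3.07% lower among all measured genes. Of 40 measured Wnt genes 4 were higher, 3 lower and 33 neither, with a median log2 ratio of -0.05 (0.15 as the mean over probe sets). The 4 were the agonist RSPO3 (54.7 and 440, at least 7.67-fold), the inhibitor DKK1 (1353 and 4879), the corepressor TLE4 (113 and 458) and the receptor FZD1 (1.30, named after its values were seen), and all 4 were higher in the CD133-high pair too. LGR4, a receptor of R-spondins, was lower at 1049 and 194. Of 33 Notch genes 4 were lower, 1 was higher and 28 neither, with a median of -0.14. The HES family genes HES1 (1098 and 427), HES2 (349 and 126) and HES4 (2444 and 1098) were among the lower genes, while HEY1 read 74.7 and 274. HES1 and HES4 had ratios above 0 in the CD133-high pair (0.48 and 0.62). Of 38 genes of TGF-beta and BMP signalling 4 were higher, 1 was lower and 33 neither, with a median of 0.10. BAMBI, a pseudoreceptor, read 161 and 652, SMAD9, a BMP effector, 421 and 1666, and SMAD7, an inhibitor, 41.9 and 159. None of these 3 was at least 2-fold higher in the CD133-high pair, where SMAD7 lay below the floor.

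Of 41 receptor kinases and ligands 4 were lower, 2 higher and 35 neither, where 2.82% of all measured genes were higher and 3.07% lower. ERBB3, a receptor of the EGFR family, read 1791 and 623, and 2213 and 2385 in the CD133-high pair. The EGFR ligands HBEGF (8016 and 2754) and TGFA (195 and 51.5, at least 3.42-fold lower) were also lower. DUSP6, a phosphatase that acts on ERK, read 1726 and 6328, but its 2 other probe sets gave log2 ratios of 0.37 and 0.95 beside 1.87. EGR1, DUSP8 and ETV1, other genes of the ERK feedback list, were lower. ETV1, an ETS factor, read 10923 and 4225. Of 24 measured members of that list 1 was higher, 3 were lower and 20 neither. Of 28 measured matrix proteases and inhibitors 5 were lower, 0 higher and 23 neither, among them TFPI2 and TIMP2 (3088 and 1306, with -2.25 and -1.63 in its 2 other probe sets). In the CD133-high pair 6 members of that list were higher, of 27 measured and against 4.05% of all genes, and 0 lower.

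Other lists held few differences, to be read against 2.82% higher and 3.07% lower among all measured genes. GATA6, a lung and endoderm factor, read 2999 and 896, but its other probe set gave 0.44, and GATA3, a lineage factor, read 1470 and 3523, with 1.52 and 1.88 in its 2 other probe sets. SLC7A11, the cystine transporter, read 8504 and 2940, and 9635 and 3633 in the CD133-high pair. EFNB2, an ephrin ligand, read 75.8 and 374, and EPHA1, an Eph receptor, 358 and 13.1, at least 6.27-fold lower. The cadherins CDH10 (95.7 and 461) and CDH19 (112 and 339) were higher. Their list of 23 measured genes held 2 higher and 2 lower, CDH1 among the lower, with a median log2 ratio of -0.07. The 22 measured interferon response genes held 0 higher and 0 lower, near those shares. The 48 ribosomal protein genes held 0 of either, and their median of -0.31 went to -0.04 under quantile normalization. Among 13142 measured genes in RefSeq order, 1 run of 3 neighbours, each 2-fold or more in 1 direction, was found: the kallikrein proteases KLK7, KLK8 and KLK10 (named after their values were seen), at log2 ratios of -1.37 to -1.20, with KLK7 and KLK8 within 2-fold in the CD133-high pair.

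A second probe set of the same gene was the only repeat measure, and it shares the RNA and the array. In 5523 genes with 2 or more probe sets above the floor on both arrays, the log2 ratios of the first 2 differed by a median of 0.31, with a 90th percentile of 0.86. Of 221 such genes with a first probe set at least 2-fold, the second had the same direction in 186 and was at least 2-fold in 66. Shared differences recurred more often in another probe set than those not shared. Of lower genes with another probe set above the floor, 24 of 41 shared (58.5%) and 33 of 120 not shared (27.5%) had one at least 2-fold lower. For higher genes these were 12 of 28 (42.9%) and 36 of 136 (26.5%). Calls also fell with signal: of 4386 genes in the dimmest of 3 parts by mean signal 4.06% were higher and 5.13% lower, and of 4387 in the brightest 1.53% and 1.003%. The share of lower genes that were shared was 13.3% in the dimmest and 27.3% in the brightest part, and of higher genes 20.8% and 5.97%.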

How the data were processed

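Total RNA of 4 sorted subpopulations of PC14 was hybridised to 1-colour Affymetrix arrays with a biotin label, 1 array each, per the labels' protocols. The authors deposited a linear intensity for each probe set. The submitters' processing notes name MAS5, with no version in the sources used here. Leaving out 2% of probe sets at either end, the mean intensity was 500.1 on each array, so the deposited values are scaled within an array. The number of arrays limits the precision.

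Of 54675 probe sets, 62 controls included, 41097 had 1 gene symbol in the platform annotation, 1801 several and 11777 none, and 41043 matched RefSeq gene IDs. The probe set brightest by mean log2 over the 4 arrays stood for each of 19775 genes. Signals under the 50th percentile of an array were set to it, and a gene was measured in a pair when above it on at least 1 array. Ratios are log2 of E-cadherin-low over E-cadherin-high. Where 1 array lay at the floor the ratio is a bound, written "at least", or counted at its bound in a median. A gene was counted when the ratio was at least 2-fold.

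The members and the 42 gene lists were chosen with earlier results of these data known. Named are CDH1 and PROM1, the 15 genes with the largest ratio in each direction, 8 at the floor on 1 array, 12 not shared (within 1.5-fold), 6 opposite, and up to 4 counted members of each list. Other genes are marked as named after their values were seen, and 1 gene that the rule names is not reported here. Neighbours are runs of at least 3 genes in RefSeq order, each at least 2-fold in 1 direction. The script was tested on simulated data. Alternatives were quantile normalization, equal medians, other floors and folds, and other choices of probe set. The tools were Python 3.11.15 with pandas 2.3.3, numpy 2.4.6 and matplotlib 3.10.9.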

Additional observations from a re-analysis of the deposited data

Results flagged for a closer look

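Genes above the floor on all arrays or at a bound, and named by the rule, were picked out where the single arrays of the 2 pairs moved at least 2-fold in opposite directions. With 1 array a group the difference between the pairs was not tested. Given here are the log2 ratios of E-cadherin-low over E-cadherin-high cells in CD133-low and then in CD133-high cells. Lower and then higher were TFPI2 (-4.45, a bound, and 6.95), EEF2KMT (-2.45, a bound, and 1.46), PDE3A (-2.24, a bound, and 2.42), EGR1 (-1.53 and 1.84), FIBCD1 (-1.43 and 1.65), E2F1 (-1.30, a bound, and 1.06), CYP4F62P (-1.25 and 1.19), EGR4 (-1.17 and 1.503), the transcript STX17-DT (-1.13 and 1.49) and LOC105369477 (-1.09 and 1.18). Higher and then lower were FBXO43 (2.42 and -1.29), MAP2K6 (1.80 and -1.60), ASZ1 (1.52 and -1.07), LOC105379499 (1.18 and -1.15), NPL (1.11 and -1.25) and SELENOP (1.08 and -3.23).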

How the results depend on the processing

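Of 1037 values of the 136 named genes over 8 alternatives, 899 moved by less than 1.5-fold, 135 by more, and 3 reversed. TCF3 was at 0.11 without probe sets marked as shared and at 0.51 by the brightest probe set on the CD133-low arrays, where SOX6 was at 0.72. The counts depend on the floor and the fold. Given in order are genes higher, lower, higher not shared, lower not shared, higher shared, lower shared and opposite. No floor gave 2416, 2372, 1307, 1288, 676, 503 and 1014. The floor at the 25th percentile gave 1571, 1551, 929, 864, 335, 241 and 414. The 1.5-fold threshold gave 1320, 1359, 887, 856, 250, 258 and 286, and the 3-fold threshold 80, 90, 52, 71, 18, 13 and 4. The floor at the 65th percentile gave 222 higher, 209 lower, 165 and 148 not shared, 34 higher shared and 11 opposite. The epithelial adhesion median was -1.003 with that floor and -0.32 as the mean over probe sets, where the MHC median was -0.56. Epithelial adhesion had 6 lower genes at 3-fold and 8 without probe sets marked as shared. As the mean over probe sets, 180 of the 371 higher and 238 of the 404 lower genes were still counted. Under quantile normalization 363 and 397 were. Of 288 medians of other lists 248 moved by at most 0.2 and 40 by more. No paired analysis was possible because each group has 1 array and the labels carry no replicate numbers, and for the same reason no replicate could be left out. The cause of these shifts was not tested, other than that a lower floor or fold admits more genes.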
